A study of Mus musculus with 6 samples.

Results

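The genes described here code for the subunits of heterotrimeric G proteins and for regulators of G protein signalling (RGS proteins). They were taken from the deposited gene table by symbol, as protein-coding genes named Gna, Gnb, Gng, Gngt or Rgs with a number or with the letter of a known G alpha. Rgs5 and Rgs9 were left out, and Gnas, the gene of G alpha s, was outside the pattern. The rule used no measured value. It found 48 genes among the 27884 of the table, 30 of them G protein subunits and 18 of them RGS genes. Of these, 43 passed the filter on low counts and were tested (28 subunits and 15 RGS genes), among 18640 genes tested in all.

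The study compared ribosome-bound RNA of Pnoc-expressing neurons with the total RNA of the whole tissue that holds them. Female NuTRAP::Pnoc-Cre mice of 17 to 18 weeks were used for both groups. In these mice, Cre recombinase driven by the gene of prepronociceptin switches on an EGFP-tagged ribosomal protein. Preoptic area (POA) tissue of 3 animals was pooled for each replicate, and there were 3 pools. The IP group (3 libraries) holds RNA extracted from ribosomes that an anti-GFP antibody pulled from the lysate. The input group (3 libraries) holds the total RNA of the same pools, processed in parallel, so that both groups share genotype, sex, age and tissue. A value per library averages 3 animals, and Cre marks cells that use the Pnoc promoter at the time or used it earlier.

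A receptor coupled to a heterotrimeric G protein loads GTP onto the alpha subunit, which then parts from the beta-gamma dimer, and both parts act on effectors such as adenylyl cyclase, phospholipase C beta and GIRK potassium channels. The alpha subunit sets the direction of the signal: the Gi, Go and Gz types lower cyclic AMP, Gs and Golf raise it, and Gq and G11 activate phospholipase C, while G12 and G13 form a class of their own. RGS proteins speed up GTP hydrolysis on the alpha subunit and so shorten the signal, and the nociceptin receptor, the target of the peptide made from Pnoc, couples to Gi and Go.

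Total counts per library lay between 48204567 and 51380354 in IP and between 49068467 and 53056642 in input. Levels are given as CPM, a gene's count relative to the library total after scaling by edgeR's TMM factors, and 3 counts correspond to between 0.0551 and 0.0651 CPM. Pnoc itself had 44.0 ± 3.39 CPM in IP and 10.6 ± 2.88 CPM in input (SD, n = 3 each), a log2 fold change of 2.06. Markers of other cell types moved strongly in this comparison. All 8 astrocyte, all 8 oligodendrocyte, all 5 oligodendrocyte precursor and all 8 microglia markers tested were called lower in IP, as were 5 of 6 endothelial and 3 of 5 mural markers. Their summed levels in IP and input libraries were 848 to 1027 against 3237 to 3795 CPM for astrocytes, 673 to 987 against 4998 to 6364 CPM for oligodendrocytes, and 40.4 to 61.5 against 317 to 402 CPM for their precursors. They were 14.9 to 27.3 against 155 to 183 CPM for microglia, 3.18 to 3.75 against 13.3 to 23.8 CPM for endothelium, and 3.61 to 5.59 against 22.8 to 37.0 CPM for mural cells. No marker of these lists was at 0 in all IP libraries. Of 10 pan-neuronal markers 4 were called higher and 1 lower (Syn1), and with the replicate as a block 5 were called higher (Stmn2 gained) and 1 lower (Map2 in place of Syn1). Of 7 GABAergic markers 4 were called higher and 0 lower. Replicate 1 stood apart: the summed level of 8 striatal projection neuron markers was 742, 389 and 484 CPM in IP replicates 1, 2 and 3 and 1872, 497 and 809 CPM in input replicates 1, 2 and 3. That of 6 cortical excitatory neuron markers was 90.4, 213 and 95.3 CPM in IP and 616, 127 and 72.6 CPM in input. It was highest in replicate 1 in input but in replicate 2 in IP, where Slc17a7 alone had 190 CPM.

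Of the 43 genes tested, 6 were higher in IP (Gnaz, Gnb2, Gng3, Gng4, Rgs10 and Rgs17) and 10 were lower (Gna12, Gna13, Gna15, Gnai3, Gnaq, Gng5, Gng7, Gng11, Gng12 and Rgs20), at an adjusted p under 0.05 (edgeR, quasi-likelihood F test, Benjamini-Hochberg over all genes). The remaining 27 were not called. These are shares of 14.0% higher and 23.3% lower, beside 12.9% higher and 17.1% lower among all genes tested. Their median log2 fold change of IP over input was -0.07, as was that of all genes. At 2-fold or more, 1 of the 43 was called higher (Rgs10) and 7 were called lower, where 2.97% and 12.2% of all genes tested were. All 3 IP libraries lay above all 3 input libraries for 8 of the 43, where 21.7% of all genes tested did so, and below them for 12, where 26% did. With the replicate as a block, which compares each IP library with the input of its own pool, 8 were higher and 12 lower, and the background was 15.2% higher and 19.4% lower. The block lost 0 of the calls made without it. All fits that leave out a library or a pool have no block. Without both libraries of replicate 2, 4 were called higher and 6 lower, beside 1508 and 2095 of all 19098 genes then tested. Without both libraries of replicate 3 the counts were 0 higher and 4 lower (Gna12, Gna13, Gng11 and Gng12), and the counts over all genes were then 133 and 742.

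**Figure D1:**
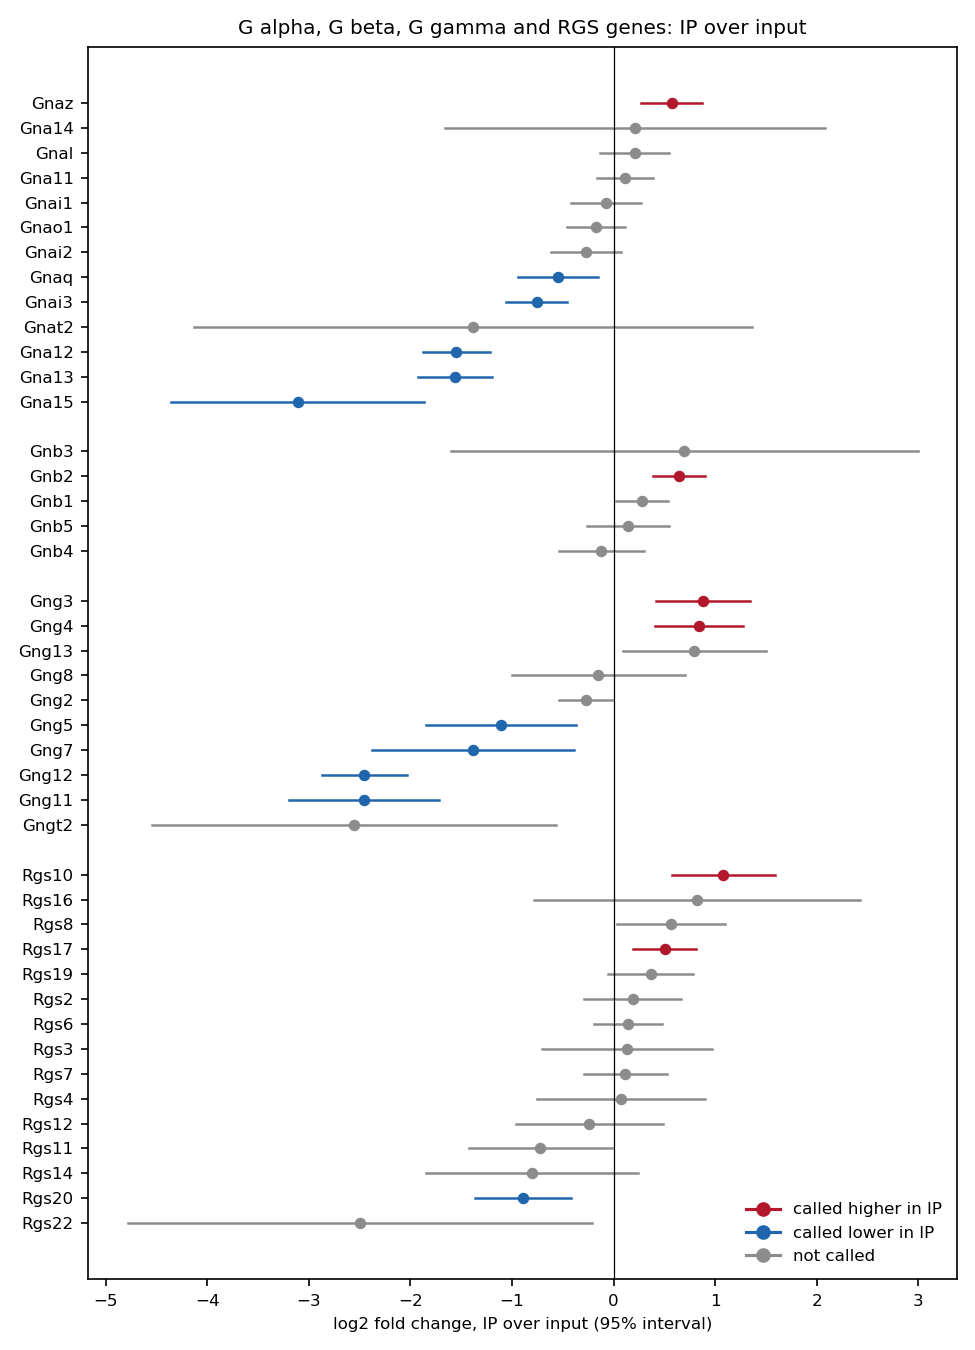
Log2 fold change of IP over input for each of the 43 tested genes, by family (G alpha, G beta, G gamma, RGS from top to bottom), with the 95% interval of edgeR's fit; red genes were called higher in IP, blue genes lower, and grey genes were not called. The 10 genes called lower include G alpha and G gamma genes at -1.55 and below, and the 6 called higher lie between 0.50 and 1.08.

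Among the G alpha genes, 1 rose and 5 fell of 13 tested, and their median log2 fold change was -0.27. These are shares of 7.69% higher and 38.5% lower, beside 12.9% and 17.1% of all genes tested. Both genes of the G12 class fell. Gna12 (ENSMUSG00000000149, chr5:140744163-140816186, mm39, minus strand) had 44.9, 42.1 and 52.9 CPM in IP replicates 1, 2 and 3, against 124, 135 and 150.4 CPM in input. Gna13 (ENSMUSG00000020611, chr11:109253657-109292195, mm39, plus strand) had 26.5, 23.1 and 32.1 CPM in IP, against 84.2, 73.2 and 84.2 CPM in input. Both genes code for widely expressed alpha subunits, and for both every IP library was far below every input library. The log2 fold change was -1.55 ± 0.14 (SE) for Gna12 and -1.57 ± 0.16 (SE) for Gna13, with adjusted p = 0.00027 and 0.000398 in edgeR's quasi-likelihood test. These are 2.93-fold and 2.96-fold differences, and both calls were kept when any one library or any one pool was left out. Gna12 shares 18.6% of its annotated exon bases with Amz1 on the other strand. Whether counting used strand is not given in the sources used here, so reads of genes that overlap on opposite strands cannot be told apart.

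The promoters of both G12-class genes are shown because the genes fell together by nearly the same factor, with those of the G gamma genes Gng12, which had the smallest adjusted p of the genes described here, and Gng3, the most abundant G gamma gene, which rose. The sequences are those of RefSeq on GRCm38.p6, 300 bases from 250 before to 50 after the annotated start, written 5′ to 3′ on the gene's own strand, and their positions are not on the build of the gene coordinates above. Capitals mark every match to the GC box GGGCGG on either strand, the core of the sites bound by Sp1-family factors, and adjoining capitals can hold overlapping matches. Gna12 (chr5:140830382-140830681, minus strand) held 7 matches, Gna13 (chr11:109362544-109362843, plus strand) 3, Gng12 (chr6:66896147-66896446, plus strand) 3 and Gng3 (chr19:8839197-8839496, minus strand) 0.
Gna12: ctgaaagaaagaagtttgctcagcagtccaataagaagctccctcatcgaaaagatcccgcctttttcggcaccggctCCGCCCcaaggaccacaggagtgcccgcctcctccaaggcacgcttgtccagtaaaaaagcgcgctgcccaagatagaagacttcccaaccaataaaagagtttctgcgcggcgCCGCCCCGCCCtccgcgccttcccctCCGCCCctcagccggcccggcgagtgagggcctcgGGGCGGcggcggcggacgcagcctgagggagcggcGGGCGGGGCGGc
Gna13: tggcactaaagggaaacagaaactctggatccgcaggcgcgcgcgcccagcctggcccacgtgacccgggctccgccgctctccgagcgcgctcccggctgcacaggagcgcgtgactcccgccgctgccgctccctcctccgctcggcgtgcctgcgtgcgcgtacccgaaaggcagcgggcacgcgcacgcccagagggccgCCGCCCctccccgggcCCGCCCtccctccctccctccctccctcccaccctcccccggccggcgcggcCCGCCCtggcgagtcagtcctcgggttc
Gng12: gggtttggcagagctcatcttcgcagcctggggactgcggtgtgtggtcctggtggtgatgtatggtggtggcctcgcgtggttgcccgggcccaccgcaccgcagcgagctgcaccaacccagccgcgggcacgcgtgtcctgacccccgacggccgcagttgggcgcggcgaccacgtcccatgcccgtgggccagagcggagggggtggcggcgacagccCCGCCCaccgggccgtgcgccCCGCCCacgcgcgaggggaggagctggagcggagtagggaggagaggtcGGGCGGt
Gng3: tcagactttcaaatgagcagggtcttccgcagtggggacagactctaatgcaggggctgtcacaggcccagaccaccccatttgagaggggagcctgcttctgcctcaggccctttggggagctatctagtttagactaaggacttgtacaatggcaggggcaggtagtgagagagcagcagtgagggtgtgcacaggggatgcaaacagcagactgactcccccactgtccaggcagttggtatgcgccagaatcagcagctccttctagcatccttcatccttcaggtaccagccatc
The share of G and C was 65.7% for Gna12, 76.7% for Gna13, 74.0% for Gng12 and 55.7% for Gng3. For Gng12 the first of 2 listed windows is given, and the other held no GC box. The windows of Gnb2, Rgs10 and Rgs17, which rose, held a GC box, as did those of Gnaq and Gng5, which fell. Those of Gna15 and Gnai3, which fell, held no GC box. Gng4, which rose, and Gng7, which fell, each had a window with a GC box and another without. Whether a GC box went with the direction of change was not tested. A window was found for 34 of the 48 genes, and 21 of these held a GC box in at least 1 window, while 35.7% of all 32851 mouse promoter windows in the table held one. Several genes have more than 1 window, so the shares are not counted alike, and a match is a string of letters, not a bound site.

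The inhibitory alpha subunits divided. Gnaz (ENSMUSG00000040009, chr10:74803009-74852739, plus strand), which codes for the pertussis-toxin-resistant Gz, rose. It had 140.2, 149 and 143 CPM in IP, against 109, 96.8 and 84.5 CPM in input, and the groups did not overlap. Gnaz changed by 0.57 ± 0.13 on the log2 scale (SE; edgeR quasi-likelihood adjusted p = 0.0137), and the call was lost without IP replicate 2 (0.55, adjusted p = 0.0528, same test). Gnai3 (ENSMUSG00000000001, chr3:108014596-108053462, minus strand), a Gi alpha found in most tissues, fell. Its level was 26.1, 23.6 and 27.5 CPM in IP, against 44.9, 43.8 and 41.9 CPM in input, with every IP library below every input library. Gnai3 changed by -0.76 ± 0.13 on the log2 scale (SE; edgeR quasi-likelihood adjusted p = 0.00392), and the call was kept without any one library. Without both libraries of replicate 3, neither Gnaz (adjusted p = 0.166) nor Gnai3 (adjusted p = 0.0731) passed in edgeR's test, and without those of replicate 2 Gnaz did not (adjusted p = 0.0611).

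The other inhibitory alpha genes were more abundant and were not called. Gnao1, which codes for the Go alpha that is plentiful in neurons, had 821, 789 and 768 CPM in IP, against 1027, 838 and 812 CPM in input, and the highest IP library overlapped the lowest input library. On the log2 scale it stood at -0.17 ± 0.12 (SE, adjusted p = 0.337, edgeR). Gnai1, a Gi alpha of the brain, had 284, 199.8 and 234 CPM in IP, against 269, 251 and 234 CPM in input, with a 95% interval of its log2 fold change from -0.42 to 0.27. For Gnai2, another Gi alpha, the values were 301, 260.2 and 301 CPM in IP, against 280.4, 388 and 371 CPM in input, with input replicate 1 lower than the other input libraries. Gnai2 stood at -0.27 ± 0.15 (SE, adjusted p = 0.213, edgeR), and it was called lower at -0.48 (adjusted p = 0.0261, edgeR) after a correction for transcript length and GC content.

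On the deposited FPKM scale, which divides by the deposited gene length, Gnai1, Gnai2 and Gnao1 were the leading G alpha transcripts in both groups. Their mean levels were 76.2 ± 13, 76.0 ± 6.08 and 71.6 ± 1.97 FPKM in IP, against 78.6 ± 4.62, 89.9 ± 15.8 and 79.0 ± 9.55 FPKM in input (SD, n = 3 each). These 3 neighbours in the order lay within each other's spread. The order depends on the length used, which was 3135 bases for Gnai1, 3779 for Gnai2 and 11053 for Gnao1. In CPM, which is not divided by length, Gnao1 was well above both, with means of 792 in IP and 892 in input. Mean CPM was 239 and 252 for Gnai1 and 287 and 346 for Gnai2. By FPKM, Gnaz followed in IP at 39.8 ± 1.35, against 26.3 ± 3.13 FPKM in input. Gnaz made up 10.5 ± 0.863% of the summed G alpha FPKM in IP and 6.02 ± 0.543% in input (SD, n = 3 each), while Gna12 made up 3.57 ± 0.383% in IP and 9.03 ± 1.21% in input. With 3 libraries against 3, an exact two-sided permutation test cannot go below p = 0.1, so that shares were not tested.

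Among the Gq-class genes 2 of 4 fell. Gnaq (ENSMUSG00000024639, chr19:16110195-16364827, plus strand), the main alpha subunit that couples receptors to phospholipase C beta, had 178, 162 and 160.5 CPM in IP, against 310.0, 211 and 209 CPM in input. Input replicate 1 was far above the other input libraries, and every IP library was below every input library. The log2 fold change was -0.55 ± 0.17 (SE; edgeR quasi-likelihood adjusted p = 0.0434). The call was kept without input replicate 2 and lost without each of the other 5 libraries (adjusted p between 0.0585 and 0.135, edgeR), with a log2 fold change of -0.33 without input replicate 1. It was lost without each pool (adjusted p = 0.074, 0.103 and 0.178, edgeR) and in edgeR after correcting for length and GC (-0.36, adjusted p = 0.0573). With the replicate block Gnaq was called lower (-0.52, adjusted p = 0.0177, edgeR), also with the correction added (-0.36, adjusted p = 0.0357, edgeR). Gna15 (ENSMUSG00000034792, chr10:81338140-81360059, minus strand), a Gq-class subunit best known from blood cells, was rare, with 0.448, 0.173 and 0.282 CPM in IP, against 3.67, 1.74 and 2.44 CPM in input. Its log2 fold change was -3.11 ± 0.54 (SE; edgeR quasi-likelihood adjusted p = 0.00428), the largest fall among the genes called here, and it did not pass without both libraries of replicate 3 (adjusted p = 0.0792, edgeR). Microglia markers were lower in IP by a median log2 of -2.97, and their part in the value of Gna15 was not tested.

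Gna11, which shares the function of Gnaq, was not called, with 127, 129.9 and 144 CPM in IP, against 131, 115 and 125 CPM in input. The 95% interval of its log2 fold change ran from -0.16 to 0.39. Gna14, a Gq-class subunit of few tissues, lay between 0.121 and 1.47 CPM in IP and between 0.588 and 0.928 CPM in input, and was not called. Gnal, the gene of Golf, which stimulates adenylyl cyclase in olfactory and striatal neurons, had 335, 375 and 366 CPM in IP, against 369, 302 and 260.0 CPM in input. It was not called at 0.21 ± 0.15 (SE, adjusted p = 0.326, edgeR), and its groups overlapped, with input replicate 1 highest among the input libraries and IP replicate 1 lowest among the IP libraries. Of the transducin alpha genes, known from photoreceptors, Gnat2 lay between 0 and 0.213 CPM in IP and between 0.110 and 0.618 CPM in input and was not called. Gnat1, with 6, 10 and 0 counts in IP and 0, 2 and 10 counts in input, was not tested. Gnat1 shares 50.7% of its exon bases with a long non-coding RNA on the other strand.

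**Figure D2:**
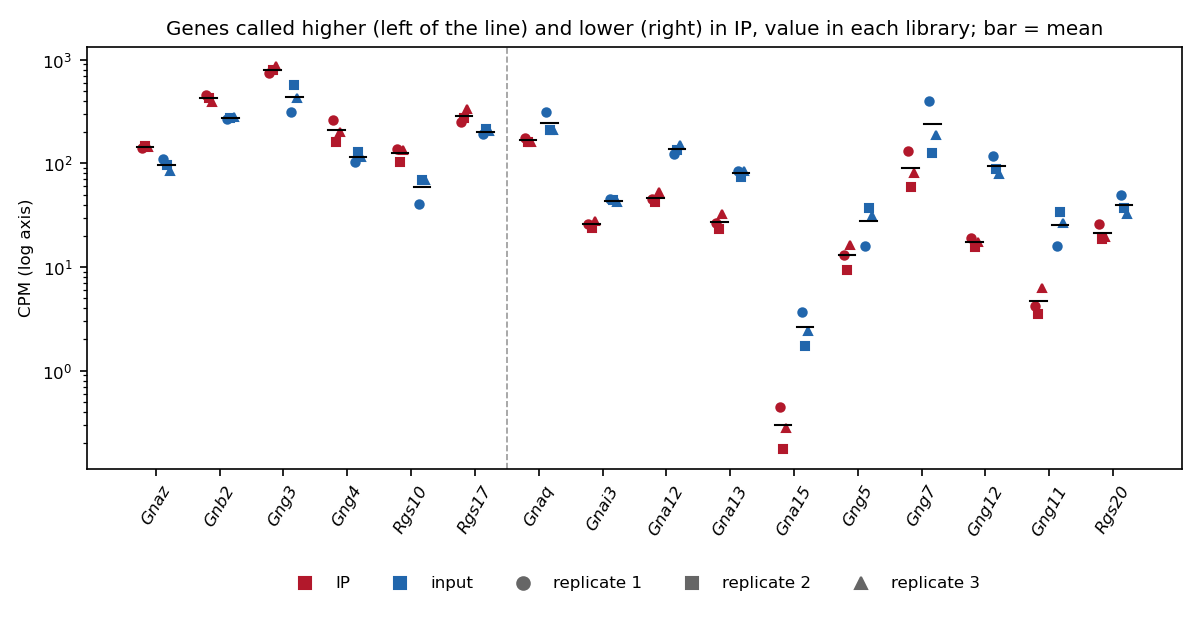
Level in CPM (log axis) of the 16 genes called in edgeR's test in each library, IP in red left of input in blue, with circles, squares and triangles for replicates 1, 2 and 3 and bars for the mean. The 6 genes left of the dashed line were called higher in IP and the 10 right of it lower; the groups overlap for Gng5 and Gng7.

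Of 5 G beta genes 1 rose and 0 fell by edgeR (unadjusted p under 0.05: 0 lower, DESeq2: 0 lower), and the median was 0.28 on the log2 scale. The edgeR shares were 20% higher and 0% lower, beside 12.9% and 17.1% of all genes tested. Gnb2 (ENSMUSG00000029713, chr5:137526389-137531772, minus strand), which codes for a widely used beta subunit, had 461, 431 and 387 CPM in IP, against 268, 274 and 277 CPM in input. All IP libraries were clearly above the tightly grouped input libraries. Its rise in log2 was 0.64 ± 0.11 (SE; edgeR quasi-likelihood adjusted p = 0.00446), kept without any one library and 0.42 after the length and GC correction. Without both libraries of replicate 3 it was 0.72 (adjusted p = 0.0738, edgeR). Gnb2 shares 12.5% of its exon bases with Gigyf1 on the other strand.

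Gnb1, the most abundant beta subunit gene, had 1004, 1154 and 1169 CPM in IP, against 892, 963 and 882 CPM in input. All IP libraries were above all input libraries, yet the log2 fold change of 0.28 ± 0.11 (SE) had an adjusted p of 0.0916 in edgeR's test. After the length and GC correction it was 0.36 and called (adjusted p = 0.0406, edgeR). Gnb5, which pairs with the R7 class of RGS proteins in place of a G gamma, had 211, 190.0 and 186 CPM in IP, against 227, 147 and 158 CPM in input, and the groups overlapped. Gnb4 had 40.3, 28.0 and 34.8 CPM in IP, against 42.0, 39.2 and 31.0 CPM in input, and shares 34.0% of its exon bases with Mfn1 on the other strand. Neither was called (adjusted p = 0.581 and 0.653, edgeR). Gnb3, the beta subunit of cones and taste cells, lay between 0.704 and 2.73 CPM in IP and between 0.0386 and 1.98 CPM in input and was not called.

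By FPKM, Gnb1 made up 57.5 ± 3.87% of the G beta transcripts in IP and 60.4 ± 2.84% in input, Gnb2 27.8 ± 2.74% in IP and 22.7 ± 1.12% in input, and Gnb5 13.9 ± 1.19% in IP and 16.0 ± 3.54% in input (SD, n = 3 each). The order Gnb1, Gnb2, Gnb5 was the same in all 6 libraries. The summed G beta level was 451 ± 12 FPKM in IP and 347 ± 8.75 FPKM in input (SD, n = 3 each). In the other families the sums were 382 ± 18.2 FPKM in IP and 435 ± 12.9 FPKM in input for G alpha. For G gamma they were 647 ± 39.1 and 478 ± 56.2 FPKM, and for RGS genes 435 ± 110 and 338 ± 21.4 FPKM (SD, n = 3 each).

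Of 10 G gamma genes tested 2 rose and 4 fell, or 20% and 40%, beside 12.9% and 17.1% of all genes tested. G gamma subunits carry the lipid that anchors the beta-gamma dimer to the membrane. Gng3 (ENSMUSG00000071658, chr19:8814297-8816558, minus strand), a neuronal G gamma, had 746, 795 and 866 CPM in IP, against 315, 568 and 426 CPM in input. The IP libraries lay close together and all above the input libraries, which were spread, with input replicate 1 lowest. On the log2 scale the change was 0.88 ± 0.20 (SE; edgeR quasi-likelihood adjusted p = 0.0131), a 1.84-fold difference. The call was lost without IP replicate 3 (0.83, adjusted p = 0.0528), without input replicate 3 (0.89, adjusted p = 0.0609) and without both (0.81, adjusted p = 0.166, all in edgeR). Gng3 shares 24.2% of its exon bases with Bscl2, its neighbour on the other strand.

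Gng4 (ENSMUSG00000021303, chr13:13958644-14002481, plus strand), another G gamma of the brain, had 261, 160.5 and 201 CPM in IP, against 103, 129 and 115 CPM in input. Every IP library was above every input library, IP replicate 1 most and IP replicate 2 least. Gng4 changed by 0.84 ± 0.19 on the log2 scale (SE; edgeR quasi-likelihood adjusted p = 0.012), and the call was kept without any one library but not without both libraries of replicate 3 (0.86, adjusted p = 0.136, edgeR).

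Gng12 and Gng11 had the largest falls among the G gamma genes called without the block. Gng12 (ENSMUSG00000036402, chr6:66873381-66998334, plus strand), a G gamma of many non-neuronal cells, had 19.0, 15.5 and 17.4 CPM in IP, against 117, 88.0 and 79.6 CPM in input. Gng11 (ENSMUSG00000032766, chr6:4003904-4008445, plus strand), a widely expressed farnesylated G gamma, had 4.2, 3.53 and 6.21 CPM in IP, against 16.1, 33.8 and 26.6 CPM in input. The IP libraries were far below the input libraries for both genes, and the calls were kept without any one library and without any one pool. Their log2 fold changes were -2.45 ± 0.18 and -2.46 ± 0.32 (SE), with adjusted p = 0.000102 for Gng12 and 0.00132 for Gng11 in edgeR's quasi-likelihood test. These are 5.48-fold and 5.49-fold differences. Median log2 fold changes of the marker lists were -2.38 for mural cells, -2.47 for astrocytes and -2.60 for endothelium. They were -2.80 for oligodendrocyte precursors, -2.97 for microglia and -3.03 for oligodendrocytes. The part that the lower glial and vascular RNA had in the values of Gng12 and Gng11 was not tested. IP held ribosome-bound RNA and input total RNA, so the cells the RNA came from and its binding to ribosomes cannot be told apart.

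Gng5 and Gng7 were called lower although their groups overlapped. Gng5 (ENSMUSG00000068523, chr3:146205562-146211327, plus strand), a widely expressed G gamma, had 13.1, 9.35 and 16.4 CPM in IP, against 16.1, 36.7 and 31.2 CPM in input, so that input replicate 1 was below IP replicate 3. The log2 fold change of -1.11 ± 0.32 (SE; edgeR quasi-likelihood adjusted p = 0.0324) kept its call without input replicate 1 and lost it without each of the other 5 libraries (adjusted p between 0.0511 and 0.119, edgeR). Without both libraries of replicate 2 it was -0.66 (adjusted p = 0.246, edgeR), and without those of replicate 3 it was -1.23 (adjusted p = 0.15, edgeR). With the replicate block Gng5 was called lower at -1.06 (adjusted p = 0.0137, edgeR). Gng5 shares 85.6% of its exon bases with Rpf1 on the other strand, so its counts may hold reads of that gene.

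Gng7 (ENSMUSG00000048240, chr10:80784458-80850779, minus strand), the G gamma that pairs with Golf in the striatum, followed the pool. It had 133, 59.5 and 80.8 CPM in IP, against 397, 127 and 188 CPM in input. The highest value in each group was in replicate 1 and the lowest in replicate 2, and in each pool IP was below input, with log2 ratios of -1.58, -1.10 and -1.22. The log2 fold change was -1.38 ± 0.43 (SE; edgeR quasi-likelihood adjusted p = 0.0424), and with the replicate block it was -1.30 ± 0.15 (SE, adjusted p = 0.000132, edgeR). Without the block the call was lost in DESeq2 (adjusted p = 0.0606), without input replicate 1 (-0.79, adjusted p = 0.1, edgeR), without IP replicate 2, IP replicate 3 or input replicate 3 (adjusted p between 0.0757 and 0.137, edgeR), and without the pool of replicate 2 (adjusted p = 0.0532, edgeR) or 3 (adjusted p = 0.21, edgeR). The striatal marker sums given above, 742, 389 and 484 CPM in IP and 1872, 497 and 809 CPM in input, have the same order of replicates as Gng7, and their part in its value was not tested.

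Gng2, a G gamma of brain and other tissues, had 217, 215 and 225 CPM in IP, against 273, 239 and 283 CPM in input. All IP libraries were below all input libraries, by little, and the log2 fold change of -0.28 ± 0.12 (SE) was not called (adjusted p = 0.106, edgeR). Gng13, a G gamma of taste and retinal cells, had 3.75 to 7.25 CPM in IP and 2.78 to 3.51 CPM in input, with no overlap, and was not called at 0.79 (adjusted p = 0.0854, edgeR). It was called higher in DESeq2 (adjusted p = 0.0473) and by edgeR without IP replicate 1 (adjusted p = 0.0484) or the pool of replicate 1 (adjusted p = 0.0485), and stood at 0.39 after the length and GC correction (adjusted p = 0.383, edgeR). It shares 43.8% of its exon bases with Chtf18 on the other strand. Gng8 lay between 1.81 and 3.18 CPM in IP and between 1.99 and 3.56 CPM in input. Gngt2, the cone G gamma, had 0.0403 to 0.499 CPM in IP and 0.966 to 1.80 CPM in input; it was not called at -2.56 (adjusted p = 0.0561, edgeR), and was called lower with the replicate block (-3.02, adjusted p = 0.0182, edgeR) and in DESeq2. Gngt2 shares 21.9% of its exon bases with Abi3 on the other strand. Gng10 had 5, 6 and 10 counts in IP and 14, 4 and 5 counts in input and was not tested.

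The G gamma make-up by FPKM shows how these values combine. Gng3 made up 75.5 ± 3.72% of the summed G gamma FPKM in IP and 53.7 ± 9.99% in input (SD, n = 3 each). It was 71.4, 78.5 and 76.6% in IP replicates 1, 2 and 3, and 43.2, 63.0 and 55.0% in input, so that the groups did not overlap. Gng4 made up 9.61 ± 2.37% in IP and 7.10 ± 0.180% in input, and Gng2 made up 7.72 ± 0.249% in IP and 12.5 ± 2.26% in input. Gng7 made up 3.72 ± 1.57% in IP and 13.4 ± 9.10% in input (23.6% in input replicate 1). Gng11 took 0.775 ± 0.185% in IP and 5.60 ± 1.46% in input, and Gng12 took 0.567 ± 0.0557% in IP and 4.18 ± 1.21% in input (SD, n = 3 each). A share rises when others fall, so these are not independent measures.

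**Figure D3:**
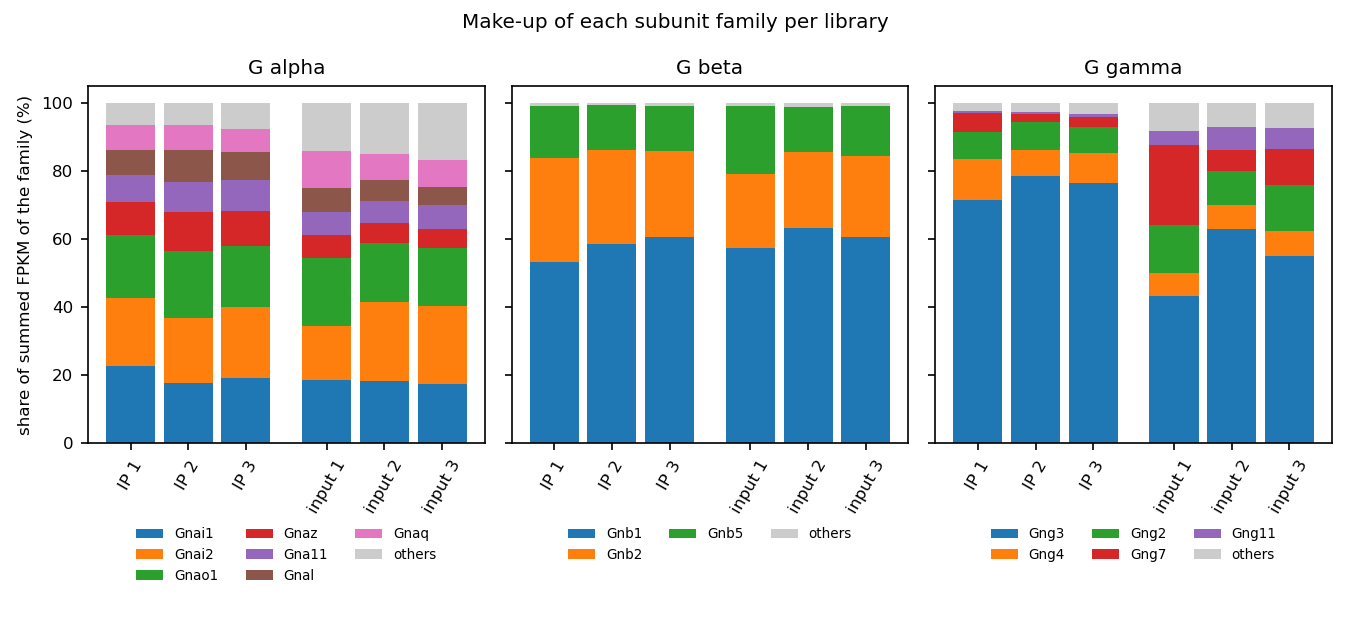
Share (%) of each gene in the summed deposited FPKM of the G alpha, G beta and G gamma genes, one bar per library, with the 3 IP bars left of the 3 input bars in each panel. Gnb2 takes 25.2 to 30.7% of the G beta bars in IP and 21.6 to 23.9% in input, and Gng3 takes 71.4 to 78.5% of the G gamma bars in IP and 43.2 to 63.0% in input.

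Of 15 RGS genes tested, 2 rose and 1 fell, and their median was 0.13 on the log2 scale. Their shares were 13.3% higher and 6.67% lower, beside 12.9% and 17.1% of all genes tested. In the R12 class, whose RGS domains act on Gi-class alpha subunits, Rgs10 (ENSMUSG00000030844, chr7:127975345-128020482, minus strand), a small RGS protein also known from microglia, rose. It had 139, 104 and 133 CPM in IP, against 40.9, 68.8 and 68.7 CPM in input, and every IP library was above every input library. Its log2 fold change of 1.08 ± 0.22 (SE; edgeR quasi-likelihood adjusted p = 0.00831), a 2.11-fold difference, was the largest among the 6 genes called higher. After the length and GC correction it was 0.76 (adjusted p = 0.0147, edgeR), below Rgs17, Gng3 and Gng4. The call was kept without any one library, and without both libraries of replicate 3 it was 1.15 (adjusted p = 0.0953, edgeR). All 8 microglia markers, from Aif1 at -2.35 to P2ry12 at -4.17 on the log2 scale, were called lower in the same libraries. The part of microglia in the value of Rgs10 was not tested.

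The other R12 genes were not called. Rgs14, known from hippocampal area CA2, had 17.2, 11.1 and 14.0 CPM in IP, against 44.8, 11.1 and 18.1 CPM in input, and the difference of -0.80 ± 0.45 (SE, adjusted p = 0.22, edgeR) came largely with input replicate 1. Rgs12 lay between 9.67 and 24.0 CPM in IP and between 15.9 and 22.9 CPM in input.

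In the RZ class, whose members act on Gz and other Gi-class alpha subunits, Rgs17 rose, Rgs20 fell and Rgs19 was not called. Rgs17 (ENSMUSG00000019775, chr10:5775663-5872400, minus strand) had 252, 273 and 334 CPM in IP, against 190.4, 213 and 204 CPM in input, with no overlap. The log2 fold change was 0.50 ± 0.14 (SE; edgeR quasi-likelihood adjusted p = 0.0257), and 1.09 after the length and GC correction (adjusted p = 0.00281, edgeR). The call was lost with library totals alone as the scaling (0.40, adjusted p = 0.0617), without IP replicate 2 (adjusted p = 0.06), IP replicate 3 (adjusted p = 0.0918) or input replicate 3 (adjusted p = 0.0775), and without the pool of replicate 2 (adjusted p = 0.0755) or 3 (adjusted p = 0.236), all in edgeR. With the replicate block Rgs17 was called higher at 0.49 (adjusted p = 0.0187, edgeR). Rgs20 (ENSMUSG00000002459, chr1:4979799-5140508, minus strand) had 26.1, 18.7 and 19.6 CPM in IP, against 49.7, 36.8 and 32.7 CPM in input, and all IP libraries were below all input libraries. Its log2 fold change was -0.89 ± 0.21 (SE; edgeR quasi-likelihood adjusted p = 0.0137), and the call was lost without IP replicate 2 (adjusted p = 0.0587) or 3 (adjusted p = 0.0609), and without the pool of replicate 2 (adjusted p = 0.0755) or 3 (adjusted p = 0.103), all in edgeR. With the replicate block Rgs20 was called lower at -0.88 (adjusted p = 0.00176, edgeR). Rgs19 had 30.1 to 36.4 CPM in IP and 20.2 to 30.9 CPM in input, with a log2 fold change of 0.37 (adjusted p = 0.169, edgeR), and shares 15.8% of its exon bases with Tcea2 on the other strand.

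The R4 class holds small RGS proteins that act on Gi-class and Gq alpha subunits, and edgeR called 0 of its 5 tested genes without the block (unadjusted p under 0.05: 1, Rgs8, which DESeq2 called higher). Rgs16 had 29.8, 162 and 146 CPM in IP, against 16.7, 96.0 and 78.0 CPM in input. Replicate 1 was far lower than the others in both groups, and within each pool IP was above input, by 0.84, 0.75 and 0.90 on the log2 scale. Without the block its log2 fold change was 0.82 ± 0.70 (SE; edgeR quasi-likelihood adjusted p = 0.417). With the replicate block it was 0.83 ± 0.14 (SE, adjusted p = 0.00113, edgeR), and Rgs16 was called higher. Rgs16 shares 18.7% of its exon bases with a long non-coding RNA on the other strand.

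Rgs8 had 195, 397 and 291 CPM in IP, against 199.6, 216 and 183 CPM in input. Replicate 1 showed no difference between IP and input, and the other pools were higher in IP by 0.88 and 0.67 on the log2 scale. It was not called at 0.56 ± 0.23 (SE; edgeR quasi-likelihood adjusted p = 0.104), and was called higher with the block (0.51 ± 0.18, adjusted p = 0.0485, edgeR), without IP replicate 1 and without both libraries of replicate 1. Rgs3 had 28.2, 67.0 and 56.5 CPM in IP, against 26.3, 56.8 and 55.7 CPM in input, and both libraries of replicate 1 were the low ones. The groups hardly differed within a pool, and the log2 fold change with the block was 0.12 ± 0.14 (SE, adjusted p = 0.553, edgeR).

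Rgs4, a regulator that is abundant in neurons, had 216, 702 and 538 CPM in IP, against 525, 476 and 383 CPM in input. The log2 ratio of IP over input was -1.28 in replicate 1, where IP was below input, and 0.56 and 0.49 in replicates 2 and 3, where it was above. The groups overlapped, and the log2 fold change was 0.07 ± 0.36 (SE; edgeR quasi-likelihood adjusted p = 0.898), or -0.06 ± 0.30 (SE) with the block. Rgs2, which acts mainly on Gq, had 186, 108 and 142 CPM in IP, against 149, 109.5 and 124 CPM in input, and was not called (0.19 ± 0.21, SE, adjusted p = 0.541, edgeR). Rgs4 was the RGS gene with the highest FPKM in input, at 146 ± 21.6, and on average in IP, at 157 ± 80.3, where IP replicate 1 held more Rgs10 than Rgs4 as a share of the RGS total (26.1% and 22.4%).

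Of the remaining R4 genes, known mainly from blood cells, none passed the filter. Rgs1 had 0 counts in all IP libraries and 50 in input, all of them in input replicate 2. Rgs18 had 0 counts in all IP libraries and 8 in input, all in replicate 3. Rgs13 had 18 counts in IP replicate 3, 0 in the other IP libraries, and 6, 8 and 14 in input. A count of 0 in an IP library allows up to between 0.0605 and 0.0651 CPM by counting error alone.

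**Figure D4:**
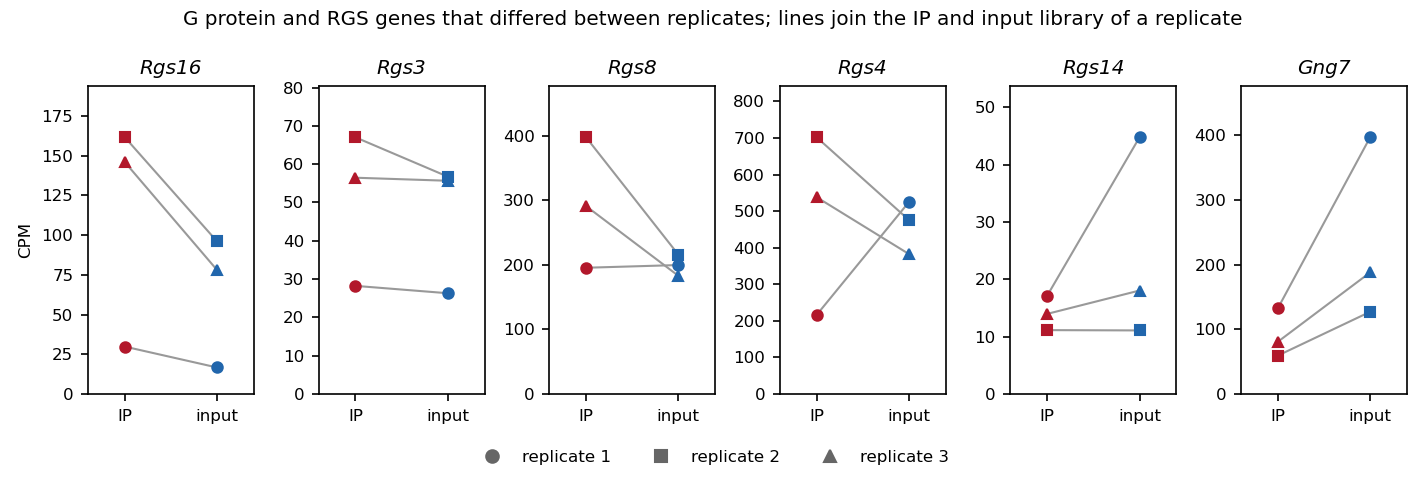
Level in CPM of 6 genes whose libraries differed between replicates, IP left and input right in each panel, with a line joining the IP and input library of one pool and circles, squares and triangles for replicates 1, 2 and 3. Rgs16 and Rgs3 are lowest in replicate 1 in both groups, Gng7 is highest there, and Rgs4 runs the other way in replicate 1 (216 CPM in IP, 525 CPM in input) than in replicates 2 and 3.

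In the R7 class, whose proteins work as dimers with Gnb5, 0 of 3 were called by edgeR (unadjusted p under 0.05: 1, Rgs11; DESeq2: 0). Rgs7 had 68.8, 108 and 95 CPM in IP, against 79.6, 91.3 and 80.4 CPM in input, and was called higher by edgeR after correction for length and GC, alone (0.62, adjusted p = 0.0302) or with the block (0.60, adjusted p = 0.00767), and stood at 0.12 without either. Rgs6 had 46.7, 58.4 and 64.1 CPM in IP, against 53.2, 50.9 and 49.3 CPM in input, with overlap. Rgs11 had 2.20 to 3.23 CPM in IP and 3.52 to 5.82 CPM in input, with no overlap, at -0.72 ± 0.31 (SE, adjusted p = 0.114, edgeR). Rgs22, an RGS protein of testis outside these classes, had 0.0426 to 0.403 CPM in IP and 0.459 to 1.31 CPM in input. It was not called at -2.50 ± 1.0 (SE; edgeR quasi-likelihood adjusted p = 0.0939) and was called lower with the block (-3.02, adjusted p = 0.0493, edgeR).

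Genes that act beside these proteins were taken from lists by role, 39 genes of which 37 were tested. Of these 2 were higher and 6 lower, the median was -0.06 on the log2 scale, and with the replicate block 4 were higher and 8 lower. Without the block these are shares of 5.41% higher and 16.2% lower, beside 12.9% and 17.1% of all genes tested. Leaving out 1 library brought the lower count down to 1 without IP replicate 3, to 2 without input replicate 3 and to 3 without IP replicate 2 or input replicate 1, and the higher count to 1 without IP replicate 2, IP replicate 3 or input replicate 3. Without the pool of replicate 3 both counts were 0.

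Among 7 receptor kinases and arrestins, which end receptor signalling, the kinases Grk2 and Grk6 rose and 0 fell by edgeR (unadjusted p under 0.05: 0 lower; DESeq2: 0 lower). Grk2 had 299.9, 333 and 310.1 CPM in IP, against 241, 214 and 241 CPM in input, and Grk6 had 103, 99.8 and 94.7 CPM in IP, against 70.6, 55.9 and 64.6 CPM in input. Neither gene's groups overlapped, and the log2 fold changes were 0.44 ± 0.11 and 0.64 ± 0.13 (SE), with adjusted p = 0.0213 for Grk2 and 0.00867 for Grk6 in edgeR's quasi-likelihood test. Grk2 lost its call after correction for length and GC (0.24, adjusted p = 0.125, edgeR).

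Among 8 adenylyl cyclases tested 2 fell and 0 rose by edgeR (unadjusted p under 0.05: 1 higher, Adcy7; DESeq2: 0 higher). Adcy3, the cyclase of neuronal primary cilia, fell with a log2 fold change of -1.07 ± 0.30 (SE, adjusted p = 0.0295, edgeR) and shares 19.0% of its exon bases with Cenpo on the other strand. Adcy9 had 1.88, 2.08 and 1.65 CPM in IP, against 22.9, 4.59 and 6.46 CPM in input, where replicate 1 was highest. On the log2 scale Adcy9 changed by -2.60 ± 0.58 (SE; edgeR quasi-likelihood adjusted p = 0.0119).

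Of 4 phospholipase C beta genes, the effectors of Gq, Plcb3 fell. It had 4.58, 3.49 and 4.01 CPM in IP, against 21.1, 11.7 and 19.7 CPM in input, and the groups lay far apart. Its log2 fold change was -2.12 ± 0.27 (SE; edgeR quasi-likelihood adjusted p = 0.00105). Plcb1, an abundant form in forebrain, was called lower with the block (-0.48, adjusted p = 0.0339, edgeR). Of 4 GIRK channel genes 0 passed by edgeR (unadjusted p under 0.05: 2, Kcnj9 and Kcnj6, which DESeq2 called higher and lower), and with the block Kcnj9 was called higher at 0.73 (adjusted p = 0.00653, edgeR) and Kcnj6 lower at -1.38 (adjusted p = 0.0495, edgeR).

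Of 4 membrane partners of RGS proteins Gpr179 fell, at -1.34 ± 0.39 (SE, adjusted p = 0.0327, edgeR), from low counts. Rgs7bp, which anchors the R7 class, had 327, 687 and 528 CPM in IP, against 556, 444 and 387 CPM in input, so that it too was low in IP replicate 1 and high in input replicate 1, as Rgs4 was. Of 9 chaperones and modulators tested 2 fell: Gpsm2, which binds Gi alpha with GDP, at -1.22 ± 0.32 (SE, adjusted p = 0.0221, edgeR), and Pdcl, a helper of beta-gamma assembly, at -0.58 ± 0.15 (SE, adjusted p = 0.0193, edgeR). Pdcl lost its call after the same correction (-0.39, adjusted p = 0.0659, edgeR). Gpsm2 shares 38.1% of its exon bases with Clcc1 on the other strand. Rasd1, a small GTPase that acts on G protein signals, was called higher with the block (1.10, adjusted p = 0.00671, edgeR). Gnas had 189.7, 173 and 246 CPM in IP, against 137, 177 and 176 CPM in input, and was not called at 0.31 ± 0.17 (SE, adjusted p = 0.202, edgeR).

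The authors' deposited table, made with DESeq2, calls 7 of the 48 genes higher and 11 lower. Of these 18 calls, 15 were made here with the same sign. The 3 others are Rgs8 (log2 fold change 0.59, adjusted p = 0.0463), Gngt2 (-2.54, adjusted p = 0.0144) and Rgs22 (-2.48, adjusted p = 0.048) in the authors' deposited table. Gng7 was called here and has an adjusted p of 0.0707 in the authors' deposited table. As the table and the test here start from the same counts, they are not independent.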

How the data were processed

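Poly(A)-selected libraries of ribosome-bound RNA (IP) and of total RNA (input) were sequenced as paired ends of 75 bases, per the labels' protocols. HISAT2, featureCounts and DESeq2 and the build mm39 stand in the submitters' processing notes, and versions, annotation release and strand setting are not given in the sources used here. The deposited read counts per gene are whole numbers without normalization. The authors' normalized signal is the counts divided by 1 size factor per library and was not used in tests. The deposited FPKM values divide by gene length, per the file headers, and were used for levels between genes and for shares. Such levels and shares depend on the length deposited for each gene. The log2 fold changes and p-values in the table are the authors' own, made with DESeq2 per the processing notes, and were only set beside the calls made here.

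Counts were tested with edgeR 4.0.16 in R 4.3.3 (glmQLFit and glmQLFTest, TMM, filterByExpr by group, group as the one factor, two-sided, Benjamini-Hochberg over all 18640 genes, adjusted p under 0.05), and the script was tested on simulated data. The SE is the size of the log2 fold change divided by the square root of F. Limits from counts of 0 use 3 counts and, like the depth, cover counting error only, since reads carry no molecular identifiers. Groups and replicate numbers come from the sample titles. Same-numbered libraries come from the same pool, per the series' design text, and are paired: their deviations from the group means correlated at 0.264, 0.144 and 0.102 for replicates 1, 2 and 3, and between -0.22 and 0.0917 for unlike numbers. The test has no term for this. A fit with replicate as a block was also run, and its value stands beside each G protein, RGS or pathway gene whose call it changes.

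Called genes and those with a mean of at least 5 log2 CPM are given in every library, others by range, and pathway genes by count and by name where called. Grk, cyclase, GIRK and other pathway genes not called were named after their values were seen. The members and lists were chosen with earlier results of these data known. Exon overlaps come from GENCODE M39 on GRCm39, in which all 87 member and pathway genes were found on the same chromosome, and promoter sequences from RefSeq on GRCm38.p6. Alternatives were DESeq2 1.42.0, scaling by RLE, upper quartile or library totals alone, 2 other low-count filters, the replicate block, a spline correction (4 degrees of freedom) for length and GC of the longest transcript (known for 99.5% of tested genes) with and without the block, a test against a fold change of 1.5, and each library or pool left out.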

Additional observations from a re-analysis of the deposited data

How the results depend on the processing

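The counts of G protein and RGS genes called were 6 higher and 10 lower. With each other scaling, tool or filter they stayed within 1.5 times of these, between 5 and 8 higher and between 10 and 12 lower. With the replicate block, a paired fit, they were 8 and 12: Gngt2, Rgs16, Rgs22 and Rgs8 were gained and 0 calls lost. With the block and the length and GC correction 10 were higher and 12 lower, beside 3167 and 3360 of all 18640 genes tested. Tested against a fold change of 1.5, 0 were higher and 5 lower (Gna12, Gna13, Gna15, Gng11 and Gng12), beside 448 and 1656 of all 18640 genes. Without 1 library or 1 pool the counts ranged from 0 to 9 higher and from 4 to 9 lower, with both minima without replicate 3, and all 16 genes called kept their sign. The pathway genes called higher (2) were 5 in DESeq2, 4 without the low-count filter or with the block, 6 with the block and the length and GC correction, and 1 with library totals alone or with the length and GC correction. Leaving out 1 library or pool gave 0 to 4 higher and 0 to 5 lower. The changes of sign with all 6 libraries kept are all of uncalled genes: Rgs4 (-0.032 with library totals alone, -0.058 with the block), Gna14 (-0.16 with the block, -0.17 with block and correction), Gna11 (-0.070 with the correction, -0.072 with block and correction), Gnai1 (0.053 and 0.039) and Gnb4 (0.098 and 0.096). With libraries or pools left out the log2 fold change ran from -0.39 to 0.13 for Gng8, from -0.025 to 0.37 for Rgs2, from -0.62 to 0.97 for Gna14, from -0.21 to 0.080 for Gnai1, from -0.25 to 0.083 for Gnb4, from -0.64 to 0.028 for Rgs12, from -0.14 to 0.42 for Rgs3, from -0.29 to 0.53 for Rgs4 and from -0.027 to 0.28 for Rgs7. The causes of these changes were not tested. The median log2 fold change of all genes lay between -0.17 (library totals alone) and -0.02. Depth limits the rarest genes: 5 of 48 did not pass the low-count filter, and the SE reached 1.2 for Gnat2.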
